A study of Mus musculus with 4 samples.

Results

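The feedback inhibitors of the MAP kinase pathway described here were 10 genes picked by symbol: the dual-specificity phosphatases Dusp1, Dusp3, Dusp4, Dusp5, Dusp6 and Dusp14, the Sprouty genes Spry2 and Spry4, and the Spred genes Spred1 and Spred2. They were 10 of 39179 genes in the deposited tables, and all 10 were among the 13550 genes compared, those averaging 50 normalised counts or more. Total RNA of mouse brain cortex was sequenced from 4 groups of F1 C57Bl6/J x Sv129 animals, all collected at ZT4, that is 4 h after lights on. The library labelled KO SD came from BK deficient mice kept awake by gentle handling for those 4 h, and KO BL from BK deficient mice left undisturbed. WT SD and WT BL were the same 2 conditions in wildtype littermates. Each group was 1 library made from RNA pooled over 4 animals, so no difference below has a replicate, and a value for 1 pool says nothing about the spread between animals. The sources used here do not give sex, age or the way the BK gene was inactivated.

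MAP kinase signalling passes from a receptor tyrosine kinase through Ras, Raf and MEK to ERK, the kinase that enters the nucleus and switches on genes. Several of these genes encode proteins that turn the same pathway off, which makes them a built-in brake: the Dusp phosphatases remove phosphate from ERK, JNK or p38 kinases, while Sprouty and Spred proteins act further up, at the receptor, Ras and Raf. In the cortex, ERK activity follows synaptic activity and neurotrophin signals, and transcripts of the inducible members are used as a sign of recent pathway activity. BK, encoded by Kcnma1, is a potassium channel gated by voltage and by calcium inside the cell.

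Kcnma1 itself had 490.9 normalised counts in KO SD, 447.2 in KO BL, 177.2 in WT SD and 613.6 in WT BL. Knockout and wildtype libraries overlapped, so a count over the whole gene did not separate the genotypes. The deposited counts give no separate value for a deleted exon, and the genotype labels could not be checked this way. Libraries held 34.5 to 38.7 M normalised counts, from an estimated 27.7 to 42.0 M reads. WT SD stood apart, with a correlation of log2 values across the 13550 genes of 0.877 to 0.911 with the other libraries, against 0.956 to 0.972 among those 3. Fold changes followed base composition and transcript length: Spearman's rho between log2 fold and GC content was -0.71 for KO SD over KO BL and 0.33 for WT SD over WT BL, and rho with length was 0.06 and -0.49. Between genotypes, rho with GC content was 0.80 for KO BL over WT BL and -0.38 for KO SD over WT SD. With length it was -0.22 and 0.51. Folds of the 10 genes and of the other genes named are therefore given from the deposited values and again after a correction for GC content and length (corrected), since the 2 often differ.

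Before the values, the promoters of Dusp5, Dusp1 and Dusp6 are shown because these genes are classic inducible members, and their upstream sequences differ in the sites for activity-regulated factors. RefSeq promoters on GRCm38.p6 were found for 8 of the 10 genes, and the 250 bases before each start were searched. The sequences below stop where the deposited gene model begins. Capitals mark CArG boxes (the serum response factor site) and the cyclic AMP response element TGACGTCA with its shorter core TGACG or CGTCA, searched on both strands.
Dusp5, chr19:53528895-53529108, plus strand: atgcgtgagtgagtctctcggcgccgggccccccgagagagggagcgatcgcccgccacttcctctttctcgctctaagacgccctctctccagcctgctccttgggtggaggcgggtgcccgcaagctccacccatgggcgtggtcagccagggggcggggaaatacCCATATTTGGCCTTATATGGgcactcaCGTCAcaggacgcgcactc
Dusp1, chr17:26508520-26508722, minus strand: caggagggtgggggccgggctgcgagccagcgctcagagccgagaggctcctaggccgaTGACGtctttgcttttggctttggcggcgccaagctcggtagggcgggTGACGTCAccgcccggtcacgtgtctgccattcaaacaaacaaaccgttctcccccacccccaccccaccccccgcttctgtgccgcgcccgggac
Dusp6, chr10:99262981-99263230, plus strand: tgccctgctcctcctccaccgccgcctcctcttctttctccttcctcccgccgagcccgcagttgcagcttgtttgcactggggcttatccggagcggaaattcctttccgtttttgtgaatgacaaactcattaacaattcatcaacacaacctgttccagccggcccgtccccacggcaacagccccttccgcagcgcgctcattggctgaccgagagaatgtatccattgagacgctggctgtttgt

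The Dusp5 promoter held 2 adjoining CArG boxes, beginning 82 and 72 bases before the RefSeq start, and the core CGTCA at 55 bases. Only 1.47% of 32851 promoters of that length held a CArG box. The Dusp1 promoter held the full element TGACGTCA at 143 bases before its start, present in 1.55% of promoters, and the core TGACG once more at 191 bases. The window of Dusp6 held none of these motifs and no AP-1 site (TGANTCA, in 6.75% of promoters). Among the other matched genes, Spred2 held the core at 51 bases before its start, found in 17.8% of promoters, and Dusp3, Dusp14, Spry2 and Spred1 held no match. The windows of Dusp3 and Dusp14 lie inside the deposited genes. That of Spred1 ends at 117121070, short of the deposited gene start at 117121374. For these genes the sequence next to the deposited start was thus not what was searched. A match is a run of letters, not a measured binding site.

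The 10 genes covered most of the range of cortical expression when their counts were divided by transcript length (normalised counts per kb). Dusp3 had the highest mean, 3446 per kb over the 4 libraries, at the 92.0 percentile of the genes compared, whose median was 387. Dusp14 (2590 per kb) and Spred1 (2504) followed, with overlapping libraries, then Spred2 (1249), Dusp6 (1040), Spry2 (879) and Dusp1 (792), each overlapping its neighbour from Spred2 on. Dusp3 did not overlap with Dusp14, nor Spred1 with Spred2, but Spred1 overlapped with Dusp3 and in KO SD was slightly above it (3527 against 3502 per kb). Dusp5 averaged 269 per kb, Spry4 106 and Dusp4 56.5, at the 40.6, 21.0 and 11 percentiles, and the libraries of these 3 did not overlap with one another or with Dusp1. Dusp3 was also the least variable: its highest library exceeded its lowest 1.21-fold, against 1.32-fold for Dusp1 and Spred2 and 1.44-fold for Dusp14. For Dusp5 this ratio was 3.0, for Spred1 2.29, for Dusp6 1.91, for Dusp4 1.83, for Spry4 1.64 and for Spry2 1.60.

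**Figure D1:**
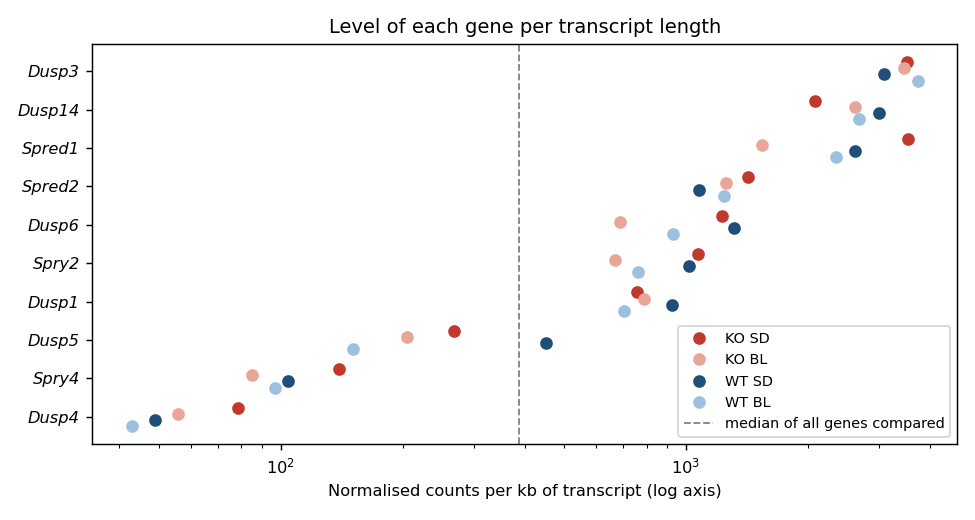
Level of each gene in normalised counts per kb of transcript (log axis), 1 point per library, genes ordered by their mean. The dashed line is the median of the 13550 genes compared (387 per kb): 7 genes lie above it, while Spry4 and Dusp4 lie below it in every library and Dusp5 exceeds it in WT SD alone.

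Sleep deprivation was first compared with undisturbed sleep within each genotype. Dusp5, Dusp6, Spry2, Spry4 and Spred1 had higher deposited values in both sleep-deprived libraries than in both baseline libraries, and none of the 10 was lower in both. In bulk cortex, a lower transcript level from fewer cells of a type and from less RNA per cell cannot be told apart. The genes are taken in turn by where their proteins act, beginning with the phosphatases of the nucleus. Intervals after a fold are 95% counting intervals and cover counting error alone.

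**Figure D2:**
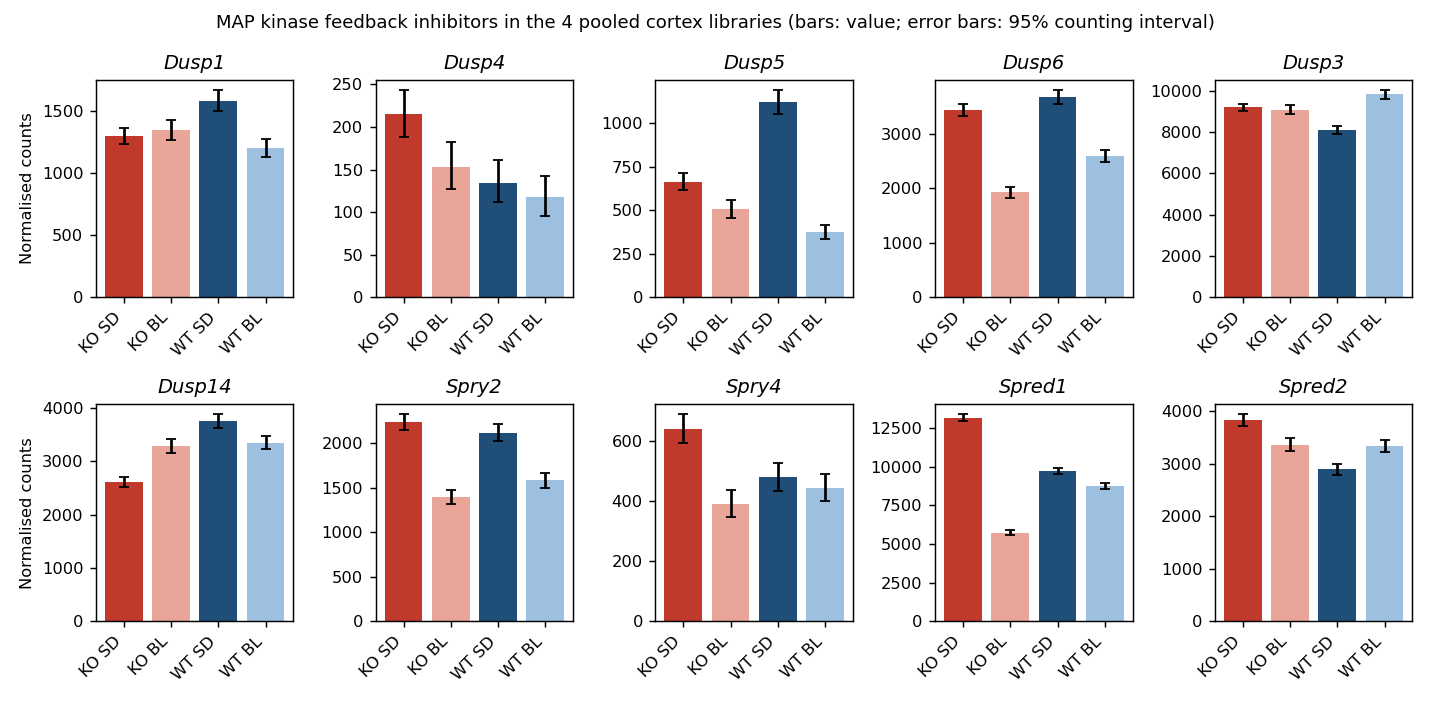
Normalised counts of the 10 genes in the 4 pooled libraries, in the order KO SD, KO BL, WT SD and WT BL. Bars are the single deposited values and error bars the 95% counting interval; Dusp5 peaks at 1119 in WT SD and Spred1 at 13150 in KO SD.

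Dusp5 (chromosome 19, 53529109 to 53542431, plus strand, mm10), a nuclear phosphatase specific for ERK and itself switched on by ERK, had 662.2 normalised counts in KO SD and 505.9 in KO BL, against 1119 in WT SD and 372.9 in WT BL. Both sleep-deprived libraries stood above both baseline libraries, WT SD far above the rest. Its log2 fold was 1.58 for WT SD over WT BL (1.40 to 1.77) and 1.51 corrected, the largest of the 10 genes on either scale. For KO SD over KO BL it was 0.39 (0.21 to 0.57) and 0.90 corrected, so that only the corrected value passed 1.5-fold. Dusp5 is rich in GC (56.7%, against a median of 50.8% for the genes compared). An exon of Dusp5 overlaps 547 bases of a gene on the opposite strand, and whether reads were counted by strand is not stated.

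Dusp1 (chromosome 17, 26505590 to 26508519, minus strand) encodes an immediate early nuclear phosphatase that acts on p38 and JNK as well as ERK. It had 1296 normalised counts in KO SD and 1349 in KO BL, against 1585 in WT SD and 1203 in WT BL. WT SD was the highest, and KO SD lay between the baseline libraries. Its log2 folds stayed under 1.5-fold in both genotypes, at -0.06 (-0.17 to 0.06) for KO SD over KO BL and 0.40 (0.28 to 0.51) for WT SD over WT BL. The corrected folds were 0.24 and 0.33, so in the knockout the direction turned with the correction.

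Dusp4 (chromosome 8, 34807297 to 34819894, plus strand), an inducible nuclear phosphatase of ERK and JNK, was the rarest of the 10. It had 214.7 normalised counts in KO SD, 152.8 in KO BL, 134.4 in WT SD and 117.5 in WT BL. Each sleep-deprived library exceeded the baseline of its own genotype, but WT SD lay under KO BL. The log2 fold was 0.49 (0.17 to 0.82) for KO SD over KO BL and 0.96 corrected. For WT SD over WT BL it was 0.19 (-0.19 to 0.59), an interval that includes 0, and 0.25 corrected.

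Dusp6 (chromosome 10, 99263231 to 99267488, plus strand) encodes the cytoplasmic phosphatase of ERK and is a standard readout of growth factor signalling. It had 3431 normalised counts in KO SD and 1925 in KO BL, against 3677 in WT SD and 2597 in WT BL. The sleep-deprived libraries did not overlap with the baseline libraries. The log2 fold was 0.83 (0.75 to 0.92) for KO SD over KO BL and 0.50 (0.42 to 0.58) for WT SD over WT BL. Corrected, it was 0.81 in the knockout and 0.93 in the wildtype, past 1.5-fold in both.

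The small phosphatases Dusp3 and Dusp14, which lack the kinase-docking domain of the larger ones, had no such pattern. Dusp3 (chromosome 11, 101971143 to 101987013, minus strand) had 9196 normalised counts in KO SD, 9087 in KO BL, 8085 in WT SD and 9821 in WT BL. Dusp14 (chromosome 11, 84048041 to 84069261, minus strand) had 2608 in KO SD, 3282 in KO BL, 3745 in WT SD and 3342 in WT BL. In neither gene were both sleep-deprived libraries on one side of both baselines. Dusp3 differed by 0.02 on the log2 scale for KO SD over KO BL and by -0.28 for WT SD over WT BL, 0.27 and 0.01 corrected. Dusp14 differed by -0.33 and 0.16, and by -0.09 and -0.13 corrected. Dusp14 was the only one of the 10 genes without both sleep-deprived libraries above both baselines after the correction.

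Among the Sprouty genes, whose proteins are induced by ERK and block signalling between receptor and Raf, Spry2 had the higher level. Spry2 (chromosome 14, 105891949 to 105896819, minus strand) had 2235 normalised counts in KO SD and 1395 in KO BL, against 2119 in WT SD and 1586 in WT BL. Spry4 (chromosome 18, 38586268 to 38601268, minus strand) had 639.5 in KO SD and 390.4 in KO BL, against 478.7 in WT SD and 443.1 in WT BL. Sleep-deprived and baseline libraries did not overlap in either gene, although for Spry4 the counting intervals of WT SD (434.6 to 526.1) and WT BL (400.0 to 489.6) did. The log2 fold of Spry2 was 0.68 (0.58 to 0.78) for KO SD over KO BL and 0.42 (0.32 to 0.52) for WT SD over WT BL, and 0.37 and 0.74 corrected. The log2 fold of Spry4 was 0.71 (0.52 to 0.91) for KO SD over KO BL and 0.11 (-0.09 to 0.31) for WT SD over WT BL, and 0.83 and 0.66 corrected. For Spry2 the larger fold was thus in the knockout as deposited and in the wildtype after the correction.

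The Spred proteins sit at the membrane, where Spred1 is known to bring neurofibromin, an inactivator of Ras, to its target. Spred1 (chromosome 2, 117121374 to 117182279, plus strand) had 13150 normalised counts in KO SD and 5735 in KO BL, against 9725 in WT SD and 8725 in WT BL. Spred2 (chromosome 11, 19924375 to 20024026, plus strand) had 3819 in KO SD and 3360 in KO BL, against 2888 in WT SD and 3333 in WT BL. Spred1 was higher in both sleep-deprived libraries, while for Spred2 the highest and the lowest library were both sleep-deprived. The log2 fold of Spred1 was 1.2 (1.15 to 1.25) for KO SD over KO BL, the largest of the 10 genes in the knockout, and 0.16 (0.11 to 0.20) for WT SD over WT BL. Corrected, the folds of Spred1 were nearly equal, at 0.59 and 0.63. Spred1 has the lowest GC content of the 10 genes (41.8%, at the 7.18 percentile) and a long transcript (3728 bp, at the 83.8 percentile). Spred2 differed by 0.18 in the knockout and -0.21 in the wildtype, and by 0.35 and 0.14 corrected.

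**Figure D3:**
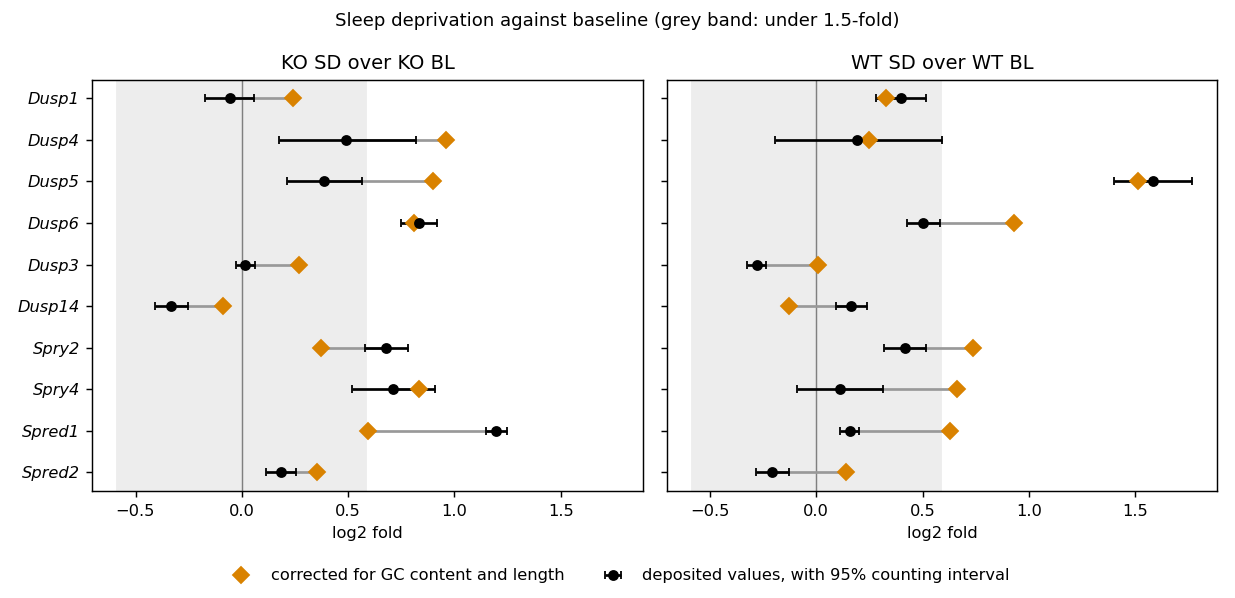
Log2 fold of sleep-deprived over baseline in the knockout (left) and the wildtype (right). Black points are deposited values with the 95% counting interval, diamonds the values corrected for GC content and length, and the grey band is under 1.5-fold; corrected, 5 genes pass the band in each genotype.

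Counted together, 4 of the 10 genes were at least 1.5-fold higher in KO SD than in KO BL (Dusp6, Spry2, Spry4 and Spred1), where 16.2% of all genes compared were that much higher. None was 1.5-fold lower, against 16.4% of all genes. In the wildtype only Dusp5 was 1.5-fold higher in WT SD than in WT BL, where 24.5% of all genes were higher, and none was lower, against 24.1%. The median log2 fold of the 10 genes was 0.44 in the knockout and 0.18 in the wildtype, and that of all genes was -0.04 in each. After the correction, 5 genes were higher in the knockout (Dusp4, Dusp5, Dusp6, Spry4 and Spred1), against 7.79% of all genes, and 5 in the wildtype (Dusp5, Dusp6, Spry2, Spry4 and Spred1), against 18.5%. None was lower in either, against 5.34% of all genes in the knockout and 18.2% in the wildtype. The corrected median of the 10 genes was 0.48 in each genotype, with all genes at 0.00 in the knockout and 0.01 in the wildtype.

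At deposited values no gene of the 10 was 1.5-fold higher in both genotypes, against 3.76% of all genes, and none was lower in both, against 4.15%. After the correction Dusp5, Dusp6, Spry4 and Spred1 were higher in both, 4 of 10 against 3.25% of all genes, and none was lower in both, against 2.68%. Counted by order alone, 5 of the 10 had both sleep-deprived libraries above both baselines and 0 had both below, where all genes gave 18.3% above and 21.3% below. Scaling the libraries to equal totals left 3 of the 5, because Spry4 and Spred1 then had WT SD under WT BL; that scaling moved the median log2 fold of all genes by -0.17 in the wildtype. Corrected, 9 of the 10 had both sleep-deprived libraries above, all but Dusp14, and 0 below, against 25.9% and 24.8% of all genes. With WT SD, the library that stood apart, left out of the ordering, 7 of the 10 genes had KO SD above both baselines at deposited values, against 32.3% of all genes. After the correction 9 did, against 38.8%. The choice of genes compared and the correction still used all 4 libraries, WT SD included. The members were chosen with earlier results of these data known, so these counts describe them and test nothing.

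The only fit with a residual among libraries was an additive model of sleep deprivation and genotype in limma, which leaves 1 degree of freedom for the residual. With 1 library per group, that residual comes from the difference between the responses of the genotypes, and limma pools it over genes. The SE and p-values of this model, here and for its genotype term below, thus do not measure the spread between replicates. They hold only if the genotypes respond alike. At deposited values none of the 10 genes had a sleep deprivation term with an adjusted p under 0.05, a call that 0.753% of all genes received. None reached an unadjusted p of 0.05 either, against 6.13% of all genes, or 3.5% counting only those higher. Dusp5 came nearest, with a limma estimate of 0.99 on the log2 scale (SE 0.53, adjusted p 0.886). After the correction none passed at an adjusted p of 0.05, against 0.0221% of all genes (3 genes), while 4 had an unadjusted p under 0.05, all of them higher after sleep deprivation, against 11.7% of all genes and 6.25% counting only those higher. These were Dusp5 (1.2, SE 0.27, adjusted p 0.393 in limma), Dusp6 (0.87, SE 0.24, adjusted p 0.393 in limma), Spry4 (0.75, SE 0.26, adjusted p 0.393 in limma) and Spred1 (0.61, SE 0.24, adjusted p 0.421 in limma). In the authors' deposited table for WT SD and WT BL, the lowest FDR of the 10 genes was 0.183, for Dusp5, and in their tables for KO SD with KO BL and for KO BL with WT BL the FDR of all 10 was 1.

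Knockout was then compared with wildtype under each condition. After sleep deprivation, Dusp4 was higher in KO SD than in WT SD, with a log2 fold of 0.67 (0.36 to 1.0) and 0.67 corrected. Dusp5 was lower in KO SD, at -0.76 (-0.89 to -0.62) and -0.67 corrected. These were the 2 genes past 1.5-fold on both scales, 1 in each direction, where all genes gave 19.8% higher and 21.1% lower at deposited values and 14.5% and 12.7% corrected. The next largest folds of KO SD over WT SD were -0.52 for Dusp14, 0.44 for Spred1, 0.42 for Spry4 and 0.40 for Spred2, which the correction brought to -0.21, -0.08, 0.01 and 0.22. The 2 genotype comparisons use the same 4 libraries as the sleep deprivation folds above.

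At baseline 1 gene differed as deposited, and none after the correction. Spred1 was the gene past 1.5-fold, lower in KO BL than in WT BL at -0.61 (-0.66 to -0.55), and its corrected fold was -0.04. No gene was higher and 1 was lower, where all genes gave 16.4% higher and 10.7% lower, and after the correction 0 and 0, against 3.19% and 3.48%. Corrected folds of KO BL over WT BL for the 10 genes ran from -0.26 in Dusp6 to 0.17 in Spry2. Across both conditions, Dusp4 and Spred2 had both knockout libraries above both wildtype libraries, 2 of 10 against 8.23% of all genes (for Spred2 the nearest libraries were KO BL at 3360 and WT BL at 3333), and Dusp14 had both below, 1 of 10 against 7.26%. Corrected, none had both above, against 10.7% of all genes, and Dusp14 alone had both below, against 10.1%. In the limma model none of the 10 genes had a genotype term with an adjusted p under 0.05, against 0.384% of all genes (52 genes) and 0.00738% corrected (1 gene). None had an unadjusted p under 0.05, against 2.05% of all genes, and 2.84% corrected.

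**Figure D4:**
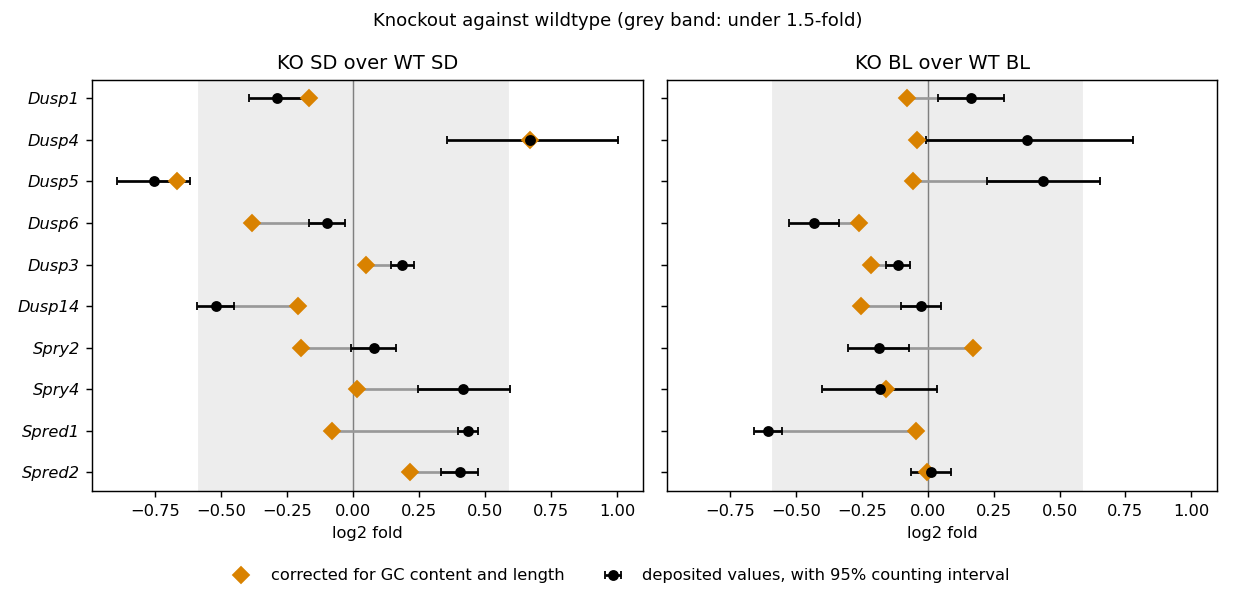
Log2 fold of knockout over wildtype after sleep deprivation (left) and at baseline (right). Black points are deposited values with the 95% counting interval, diamonds the corrected values, and the grey band is under 1.5-fold; Dusp4 and Dusp5 lie outside the band after sleep deprivation on both scales, and at baseline no corrected value does.

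The response to sleep deprivation in the knockout was set against that in the wildtype as the difference of the 2 log2 folds. At deposited values Spred1 responded more in the knockout, by 1.04 (0.98 to 1.11), and Dusp5 less, by -1.20 (-1.45 to -0.94). A difference of at least 1 was thus seen in 1 gene in each direction, where all genes gave 16.6% and 19.2%. After the correction no gene differed by 1 in either direction, against 8.19% and 5.56% of all genes: Spred1 was at -0.04 and Dusp5 at -0.62. The largest corrected difference was 0.71, for Dusp4, with the counting interval of its deposited value (0.30) running from -0.20 to 0.79. With 1 library per group, no test of the difference itself could be had.

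The rest of the pathway was followed in 9 lists, chosen with earlier results of these data known. The first list held transcripts that ERK is known to induce. Of its 18 genes compared, 12 were 1.5-fold higher and 1 was lower in WT SD over WT BL (median 0.82, and 0.82 corrected), and 3 were higher and 1 lower in KO SD over KO BL (median 0.15, and 0.75 corrected with 10 higher and 1 lower). The 3 of 18 in the knockout as deposited are close to the 16.2% of all genes that were higher there. The 12 in the wildtype stand beside 24.5% of all genes, and the corrected 10 in the knockout beside 7.79%. In 10 of the 18, and 11 corrected, both sleep-deprived libraries were above both baselines, and in 0 both were below. Of all genes, 18.3% were above and 21.3% below, and 25.9% and 24.8% corrected. In the wildtype the largest folds were those of Egr4 (2.32, corrected 1.13), Junb (2.09, corrected 1.28) and Fosb (1.62, corrected 1.79), which encode transcription factors of the immediate early response. Egr3 (-4.38, corrected -5.40), a relative of Egr4, had 801.1 normalised counts in KO SD, 696.1 in KO BL, 18.88 in WT SD and 413.3 in WT BL. In the knockout they were those of Homer1 (1.92, corrected 1.43), a scaffold of the synapse, Junb (-1.42, corrected -0.72), the transcription factor Fosl2 (0.97, corrected 1.17) and Arc (0.97, corrected 1.55), which acts in removing glutamate receptors from synapses. Junb thus had opposite directions in the 2 genotypes on both scales, a difference that was not tested.

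A further list held other phosphatases, Sprouty and Spred genes. Of 7 compared (Dusp2, Dusp7, Dusp8, Dusp10, Dusp16, Spry1 and Spred3), none had both sleep-deprived libraries above both baselines, deposited or corrected, and 1 had both below at deposited values and 0 corrected. All genes gave 18.3% above and 21.3% below as deposited, and 25.9% and 24.8% corrected. Dusp2, an inducible nuclear phosphatase, had 26.33 normalised counts in KO SD, 55.1 in KO BL, 97.27 in WT SD and 28.69 in WT BL. It is below the mean of 50 that the comparison required without WT SD, the library where it was highest, so no fold is given for it.

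Growth factors that feed the pathway were higher in 4 of 8 genes compared, by the order of libraries, with 1 lower, both deposited and corrected. By the same order all genes gave 18.3% higher and 21.3% lower as deposited, and 25.9% and 24.8% corrected. Bdnf, the neurotrophin that signals through the receptor TrkB, had 2020 normalised counts in KO SD and 837.9 in KO BL, against 1825 in WT SD and 1017 in WT BL. Its log2 fold was 1.27 for KO SD over KO BL and 0.84 for WT SD over WT BL, and 0.58 and 1.30 corrected. Igf1, which encodes a ligand of the IGF receptor, had folds of 1.01 in the knockout and 0.43 in the wildtype, and 0.82 and 0.71 corrected. Hbegf, which encodes a ligand of the EGF receptor, had folds of 0.80 and 0.43, and 0.84 and 0.77 corrected. Pdgfa had the largest fold of this list in the wildtype, 1.74, against 0.02 in the knockout (corrected 0.76 and 0.57). Nrg1, at 23.33 to 71.39 normalised counts, was lower, by -0.43 in the knockout and -1.37 in the wildtype (corrected -0.14 and -1.25). Fgf1 had opposite directions, 0.61 in the knockout and -0.21 in the wildtype, and 0.83 and -0.23 corrected. Of 11 receptor tyrosine kinases, 1 had both sleep-deprived libraries above both baselines and 2 below, and 3 and 1 corrected. By size, 2 were 1.5-fold higher and 2 lower in KO SD over KO BL, and 1 was higher and 5 lower in WT SD over WT BL. All genes gave 16.2% higher and 16.4% lower in the knockout, and 24.5% and 24.1% in the wildtype. Corrected, 1 was higher and 1 lower in the knockout, and 1 was higher and 2 lower in the wildtype. All genes then gave 7.79% and 5.34% in the knockout, and 18.5% and 18.2% in the wildtype. Fgfr2, a receptor of fibroblast growth factors, had the largest fold of this list in the knockout, 1.48 and 1.65 corrected. Ntrk3, a neurotrophin receptor, had the largest in the wildtype, -4.71 and -4.42 corrected, with 33.32 normalised counts in WT SD and 900.3 in WT BL.

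The core of the cascade had genes in both directions. Of 15 genes from Ras to ERK, 2 had both sleep-deprived libraries above and 4 below both baselines, and 3 and 7 corrected. By this order, here and for the lists that follow, all genes gave 18.3% above and 21.3% below, and 25.9% and 24.8% corrected. The corrected 7 of 15 below was thus a larger share than that of all genes, and the 3 above a smaller one. At deposited values 2 were 1.5-fold higher and 4 lower in KO SD over KO BL, and none corrected, while 3 were higher and 5 lower in WT SD over WT BL, and 3 and 3 corrected. As deposited, the 2 and 3 of 15 higher are no larger shares than the 16.2% and 24.5% of all genes that were higher in these comparisons. The 4 and 5 of 15 lower are larger shares than the 16.4% and 24.1% of all genes that were lower. Corrected, all genes gave 7.79% higher and 5.34% lower in the knockout, and 18.5% and 18.2% in the wildtype. In the wildtype the largest folds were those of Map2k2 (1.77, corrected 1.02), a MEK kinase, Hras (1.75, corrected 1.2), a Ras protein, and Ksr2 (-1.63, corrected -1.24), a scaffold. Among 14 Ras activators and adaptors, 0 were above and 5 below by the order of libraries, 1 and 6 corrected. Of 5 Ras GTPase-activating proteins 1 was above and 1 below, 2 and 2 corrected. Of 10 JNK and p38 kinases and their activators 2 were above and 5 below, 4 and 5 corrected. Of 12 kinases and transcription factors activated by ERK 2 were above and 3 below, 4 and 3 corrected.

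**Figure D5:**
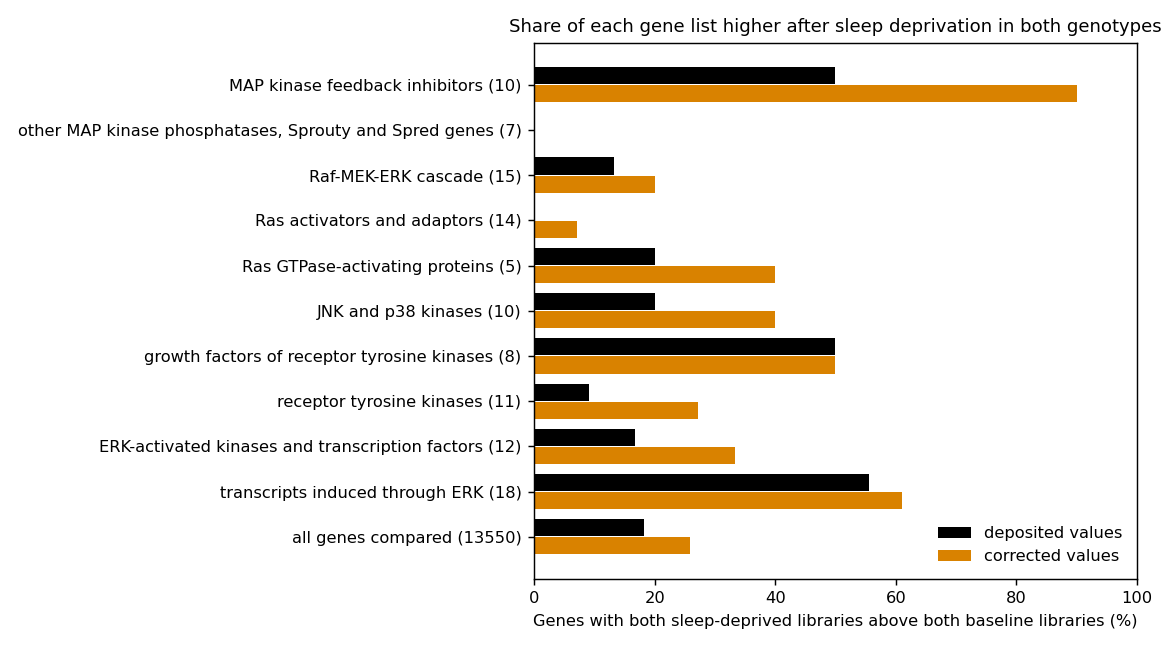
Share of the genes of each list (number compared in brackets) whose values in both sleep-deprived libraries lay above both baseline libraries, at deposited values (black) and corrected (orange). The 10 feedback inhibitors reach 50% and 90%, transcripts induced through ERK 55.6% and 61.1%, and all genes 18.3% and 25.9%. The 90% counts Dusp3, whose corrected log2 fold in the wildtype was 0.01.

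Sums of cell type markers are given at deposited values beside these results. The tissue label was matched by Tbr1, a transcription factor of cortical excitatory neurons, at 4438 to 5914 normalised counts in every library. The summed level of 6 astrocyte markers was 60389 normalised counts in KO SD and 36224 in KO BL, against 41269 in WT SD and 46630 in WT BL, a log2 difference of 0.74 in the knockout, where Spred1 was highest, and -0.18 in the wildtype. Slc1a3, a glutamate transporter, made up the largest part of that sum, and the median fold of the 6 markers was 0.61 in the knockout and 0.17 in the wildtype, and 0.47 and 0.39 corrected. In 4 of the 6 both sleep-deprived libraries were above both baselines, on either scale, and in 0 both were below. Among all genes this order was seen in 18.3% above and 21.3% below, and in 25.9% and 24.8% corrected. The sum of 6 markers of excitatory neurons differed by -0.36 in the knockout and -0.22 in the wildtype, with sums between 202372 and 280358, and that of 6 oligodendrocyte markers by 0.01 and 0.97. Red blood cell markers were lowest in KO SD, at 12182 against 38351 to 46179 in the other libraries by their sum, but 4 of the 5 markers had both sleep-deprived libraries below both baselines as deposited and all 5 did corrected, with corrected median folds of -1.75 in the knockout and -2.14 in the wildtype. Of 4 choroid plexus and ependyma markers, Ttr was high in KO SD, at 580.7 normalised counts against 23.75 to 65.02 in the other libraries. Foxj1 was also highest there, by little (71.95 against 30.99 to 66.43), and Kl lay between the other libraries (75.46 against 54.43 to 136.6). Folr1 was lowest there (3.51 against 8.89 to 13.8), but that value is close to the 2.63 normalised counts that 3 reads make in KO SD. No marker of these lists was at 0 in any library. The part of these shifts in the values of the 10 genes was not tested. Mitochondrial transcripts made up 19.4% of normalised counts in KO SD and 12.7% to 13.5% in the other libraries.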

How the data were processed

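The sleep deprivation series held 4 pooled libraries. Values are a signal per gene: estimated counts scaled by the authors, with 1 factor for each library, per the file headers and values; the submitters' processing notes name RSEM 1.2.19, edgeR and mm10 (GRCm38). The aligner is not given in the sources used here. The log2 ratios, p-values and FDR values are the authors' own, made from single libraries; ratios were turned round here. GC fraction and transcript width are as deposited by the authors. Low values fall on steps of 0.878 to 1.25 normalised counts per read, from which reads and exact 95% counting intervals were estimated.

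Folds were taken on log2(value + 1) for genes averaging 50 or more; they understate changes of low genes. For the correction, each library was fitted against GC content and log10 length by loess (span 0.3, degree 2). limma 3.58.1 (trend variance, Benjamini-Hochberg over 13550 genes) replaced the count models, since the values are not whole reads; the prior degrees of freedom were infinite at deposited values and 6.28 corrected. The procedure was run on simulated data with linear trends in GC content and length and the same response in both genotypes. Genotypes that respond differently were not covered by it. Named genes were the members, Kcnma1 and up to 4 per list with the largest fold, except a result that is not reported here. The members and lists were chosen with earlier results of these data known. Exon overlaps come from GENCODE M21.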

Additional observations from a re-analysis of the deposited data

How the results depend on the processing

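Correcting for GC content or length separately, a wider loess span (0.75) and leaving WT SD out of the ordering were alternatives chosen after seeing the data. Genes 1.5-fold higher in WT SD than in WT BL numbered 1 as deposited, 5 with GC and length corrected at either span, 3 with GC and 2 with length corrected alone. A threshold of 2-fold left 1 of 4 genes higher in KO SD than in KO BL. The 1 gene lower in KO BL than in WT BL became 0 under all 4 corrections and at 2-fold. For KO SD over WT SD, 1 gene was higher and 1 lower; the higher count was 0 with a filter of 200 (Dusp4 not compared), with length corrected alone and at 2-fold, and 3 when scaled to totals without mitochondrial genes; the lower count was 0 under that scaling, with GC corrected alone and at 2-fold. Responses differing by 1 numbered 2, then 0 with GC and length corrected at either span and 1 with either alone. The count with both sleep-deprived libraries above both baselines was 5, then 3 under either total scaling and 9 with GC and length corrected at either span. No other alternative moved these counts by over 1.5 times.

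Some values changed direction. The difference of responses of Spred1 became -0.036 with both corrected and -0.062 at span 0.75. With both corrected it also turned for Spry2 (-0.37 against 0.26 as deposited), Dusp6 (-0.12 against 0.33) and Dusp14 (0.04 against -0.50). Of the 40 folds of the 10 genes, 17 changed sign under at least 1 alternative, 0 of them past 1.5-fold as deposited. The limma sleep deprivation term (log2) became 0.14 for Dusp3 (0.12 at span 0.75) and 0.020 for Dusp14 with GC corrected alone. For Spred2 it became 0.025 under median scaling, 0.25 with both corrected, 0.088 with GC alone, 0.12 with length alone and 0.24 at span 0.75. The genotype term became 0.014 for Dusp1 and 0.022 for Spry2 under total scaling without mitochondrial genes. With GC corrected alone it was 0.012 for Spry2 and 0.0022 for Spred1. For Dusp3 it became -0.084 with both corrected (-0.082 at span 0.75) and -0.034 with length alone, and for Spry4 -0.072 (-0.067) and -0.018. The cause was not tested. No paired analysis was possible because each group has 1 library. Each pool is 1 sample, so depth limits only the counting error, which is widest for Dusp4.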
